A study of Homo sapiens
Mus musculus with 16 samples.

Results

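The genes described here encode 10 tubulin isotypes of the human tumour cells: the 6 β-tubulins TUBB, TUBB2A, TUBB2B, TUBB3, TUBB4B and TUBB6, and the 4 α-tubulins TUBA1A, TUBA1B, TUBA1C and TUBA4A. They were chosen by their Ensembl gene identifiers, under a rule that uses no values, from the 58051 human genes in the count matrix. Earlier results of these data were known when they were chosen. All 10 were listed, and all 10 were among the 18131 genes that passed the filter on low counts. The matrix identifies genes by Ensembl identifier alone, so the symbols are those given with the identifiers at selection.

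The tumours were xenografts of MDA-MB-231, a line of human breast cancer of the triple-negative kind, grown in the fat pad of the mammary gland in Balb/c nude mice. They were taken on day 50. There were 4 mice in each of 4 groups, with 1 mRNA library per tumour. The combination group received nab-paclitaxel at 30 mg/kg on days 15, 22 and 29 together with phenelzine at 40 mg/kg daily from day 15. The nab-paclitaxel group and the phenelzine group received the same schedule of 1 drug each, and the vehicle group received vehicle, all by intraperitoneal injection. All tumours came from 1 cell line, and nude mice lack mature T cells of thymic origin. Nab-paclitaxel is the albumin-bound form of paclitaxel, and phenelzine inhibits monoamine oxidases. No marker of the cell line could be looked up in the matrix, because symbols were at hand for the 10 tubulin genes alone.

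Microtubules are polymers of α/β-tubulin dimers, and mammals make each subunit from several genes. The encoded isotypes are close in sequence and differ most in their acidic C-terminal tails. Paclitaxel binds the β subunit inside the polymer and stabilises it, which blocks mitosis. Cells also adjust tubulin synthesis to the amount of free dimer, by degrading tubulin mRNAs during translation when free dimer is in excess. TUBB and TUBA1B are major isotypes of dividing cells. TUBB3, TUBB2A, TUBB2B and TUBA1A are best known from neurons, and high TUBB3 in tumours has been linked to poor response to taxanes.

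In RefSeq's annotation of GRCh38.p14, TUBB (ENSG00000196230) lies on chromosome 6 from 30720352 to 30725422. TUBB2A (ENSG00000137267), from 3153666 to 3157544, and TUBB2B (ENSG00000137285), from 3224277 to 3227653, are near-identical neighbours on the same chromosome, 66.7 kb apart. TUBB3 (ENSG00000258947) lies on chromosome 16 from 89921925 to 89936097, TUBB4B (ENSG00000188229) on chromosome 9 from 137241287 to 137243707, and TUBB6 (ENSG00000176014) on chromosome 18 from 12307669 to 12329826. TUBA1B (ENSG00000123416, 49127782 to 49131395), TUBA1A (ENSG00000167552, 49184795 to 49189080) and TUBA1C (ENSG00000167553, 49227926 to 49274600) form a cluster of 147 kb on chromosome 12. TUBA4A (ENSG00000127824) lies on chromosome 2 from 219249710 to 219254740. Its span shares 1498 bases with TUBA4B and 628 bases with STK16. The span of TUBB6 shares 883 bases with AFG3L2, and that of TUBB4B 109 bases with CIMIP2A. How reads shared between such paralogs or overlapping genes were counted is not given in the sources used here, and the same table lists 55 α- and β-tubulin pseudogenes. Values of TUBB2A and TUBB2B, and of the TUBA1 genes, are uncertain to that extent.

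Human totals ran from 11065140 counts (combination 1) to 34537399 counts (phenelzine 1) per library. The mouse share, the percentage of all human and mouse counts that lay in mouse genes, was 18.6% to 71.2% in the 8 libraries with nab-paclitaxel and 9.25% to 37.8% in the 8 without. Libraries nab-paclitaxel 1 and 4 and combination 1 and 3 stood apart from the rest in their human genes. On the first principal component, with 48.7% of the variance, they scored 72.7 to 125, against -56.6 to 5.4 for the other 12. Their mouse shares were 41.9% to 71.2%, against 9.25% to 47.4% in the other 12. In such tumours, more or fewer cells of a type and more or less RNA per cell cannot be told apart. Human and mouse tubulin genes are close in sequence, and how reads were divided between the species is not given in the sources used here. Results are therefore given also with the mouse share as a covariate and without these 4 libraries.

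TUBB2A, TUBB2B, TUBB3, TUBA1A and TUBA4A rose on average over the 8 libraries with the drug against the 8 without, by 1.53- to 3.11-fold. Of all tested genes 17.3% passed in this comparison and 11.2% rose, and none of the 5 calls was kept with the mouse share as a covariate or without the 4 libraries. TUBB, TUBB4B, TUBB6, TUBA1B and TUBA1C did not pass the test, with fold changes of 0.712 to 0.973. No isotype passed in a test of the phenelzine effect. Together the 10 genes held 0.518% to 0.657% of the human counts of a library, and the summed α counts were 0.327 to 0.718 times the summed β counts.

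Levels are human counts per 1000000 counts of the library (CPM), scaled by TMM factors between libraries, and are not divided by transcript length. They compare the same gene between tumours and do not rank isotypes against each other. Fold changes and p-values come from edgeR's quasi-likelihood test on all human genes tested, with Benjamini-Hochberg adjustment over all of them and a threshold of 0.05. Values of a group are listed in the order of mice 1 to 4.

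**Figure D1:**
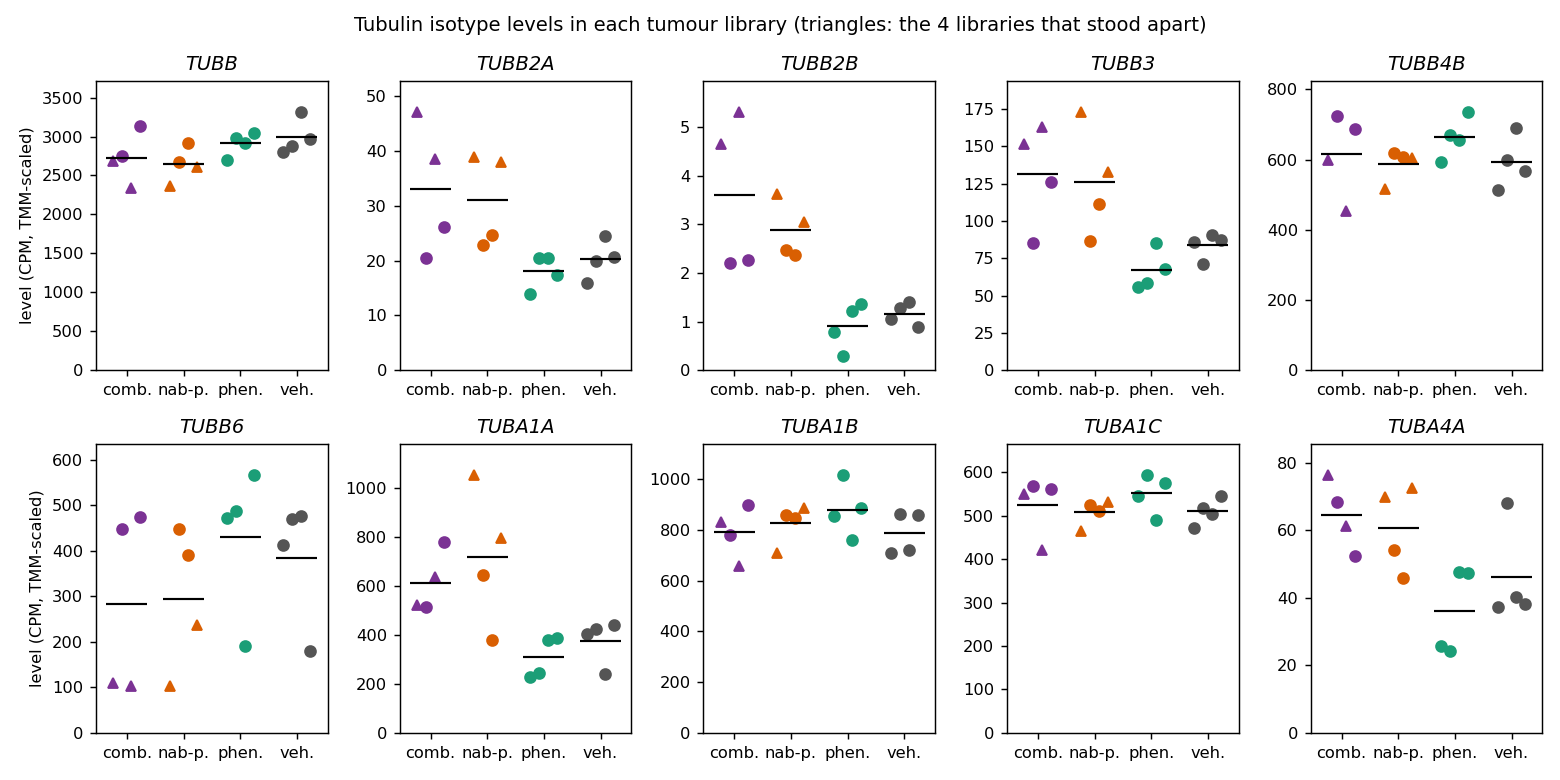
Level of each tubulin isotype in every library (CPM, linear axis from 0), by group from left to right: combination, nab-paclitaxel, phenelzine, vehicle; points are libraries, bars are group means, and triangles mark nab-paclitaxel 1 and 4 and combination 1 and 3. The 8 libraries with nab-paclitaxel sit between 2.21 and 5.32 CPM for TUBB2B, above the 0.293 to 1.41 CPM of the 8 without, whereas TUBB stays between 2338 and 3315 CPM in all 16.

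TUBB, the main β-tubulin of proliferating cells, varied little. It stood at 2682, 2754, 2338 and 3136 CPM with the combination, 2368, 2672, 2920 and 2610 CPM with nab-paclitaxel, 2695, 2985, 2917 and 3051 CPM with phenelzine, and 2797, 2874, 3315 and 2972 CPM with vehicle. The groups overlapped, and the highest of the 16 values was 1.42 times the lowest. The average nab-paclitaxel effect on TUBB was a log2 fold change of -0.14 with SE 0.0857 (edgeR adjusted p = 0.268).

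TUBB4B, a β-tubulin found in most tissues and in cilia, ran from 453 to 725 CPM with the combination, 516 to 619 CPM with nab-paclitaxel, 594 to 736 CPM with phenelzine and 514 to 689 CPM with vehicle. These ranges overlapped throughout. Its average nab-paclitaxel effect was a log2 fold change of -0.06 with SE 0.101 (edgeR adjusted p = 0.688).

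TUBB3, the class III β-tubulin of neurons, stood at 152, 85.2, 163 and 126 CPM with the combination, 173, 86.6, 112 and 133 CPM with nab-paclitaxel, 55.8, 58.4, 84.9 and 68.1 CPM with phenelzine, and 86.1, 70.9, 90.7 and 87.1 CPM with vehicle. All 4 combination libraries lay above all 4 phenelzine libraries. The lowest libraries with nab-paclitaxel, combination 2 and nab-paclitaxel 2, fell within the vehicle range. Over the 8 libraries with nab-paclitaxel TUBB3 averaged 129 ± 33.1 CPM, against 75.3 ± 13.7 CPM in the 8 without (SD, n = 8 each). The average effect was a log2 fold change of 0.78 with SE 0.157 (edgeR adjusted p = 0.00627).

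TUBB2B, a β-tubulin of the developing nervous system, was the isotype with the fewest counts, 10 to 95 per library. Its level was 4.66, 2.21, 5.32 and 2.28 CPM with the combination, 3.63, 2.47, 2.37 and 3.06 CPM with nab-paclitaxel, 0.792, 0.293, 1.23 and 1.37 CPM with phenelzine, and 1.06, 1.28, 1.41 and 0.899 CPM with vehicle. The 8 libraries with nab-paclitaxel all lay above the 8 without, a separation that 1.28% of the tested genes showed in this direction. The means were 3.25 ± 1.19 CPM with and 1.04 ± 0.372 CPM without the drug (SD, n = 8 each), or a log2 fold change of 1.64 with SE 0.294 (edgeR adjusted p = 0.00404). Of the 8 libraries with nab-paclitaxel, the 4 that did not stand apart were the lowest, at 2.21 to 2.47 CPM. The highest library without the drug held 1.41 CPM.

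TUBB2A, its neighbour and close copy, stood at 47.1, 20.5, 38.6 and 26.2 CPM with the combination, 38.8, 22.8, 24.6 and 37.9 CPM with nab-paclitaxel, 13.9, 20.4, 20.4 and 17.5 CPM with phenelzine, and 15.8, 19.9, 24.5 and 20.6 CPM with vehicle. The combination libraries lay above the phenelzine libraries without overlap, by a narrow margin for combination 2. The libraries that stood apart held the 4 highest values, 37.9 to 47.1 CPM, and the other 4 with nab-paclitaxel, at 20.5 to 26.2 CPM, reached into the vehicle range. The average effect was a log2 fold change of 0.75 with SE 0.180 (edgeR adjusted p = 0.0141).

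TUBB6, the class V β-tubulin, whose mouse form disrupts microtubules when overexpressed in hamster cells, varied most between tumours among the isotypes over 100 CPM. Its values were 111, 447, 104 and 474 CPM with the combination, 102, 447, 390 and 236 CPM with nab-paclitaxel, 472, 487, 190 and 567 CPM with phenelzine, and 413, 470, 477 and 179 CPM with vehicle. Low libraries occurred in every group: combination 1 and 3, nab-paclitaxel 1 and 4, phenelzine 3 and vehicle 4 lay at 102 to 236 CPM, and the other 10 at 390 to 567 CPM. Its dispersion in the edgeR fit was at or above that of 98.7% of the 2402 tested genes with a mean of at least 100 CPM. The average nab-paclitaxel effect was a log2 fold change of -0.49 with SE 0.389 (edgeR adjusted p = 0.383).

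The low TUBB6 libraries included those with the highest mouse shares and the lowest. The mouse share was 59.7%, 71.2%, 55.9% and 41.9% in nab-paclitaxel 1, combination 1, combination 3 and nab-paclitaxel 4, and 9.25% and 13.6% in phenelzine 3 and vehicle 4. Combination 2, with a mouse share of 47.4%, and vehicle 2, with 37.8%, held 447 and 470 CPM of TUBB6. Across the 16 libraries log2 CPM of TUBB6 and TUBB3 correlated at r = -0.75, given as a description, since the points share treatment groups and library scaling.

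**Figure D2:**
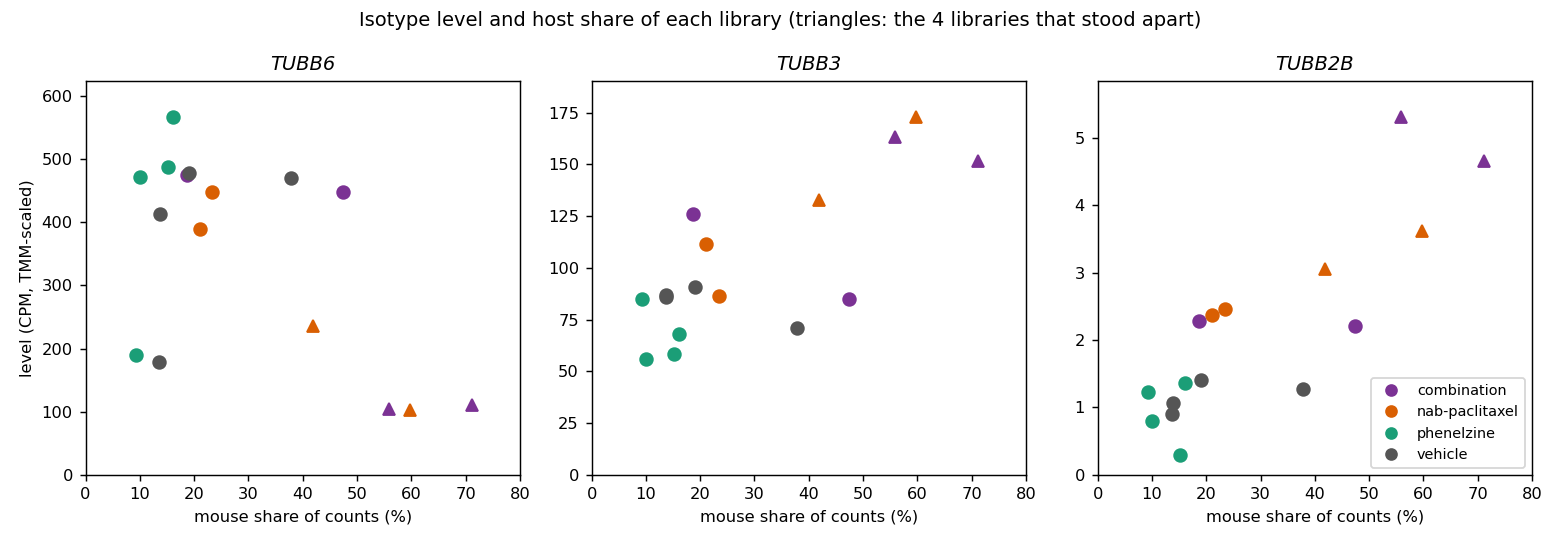
Level of TUBB6, TUBB3 and TUBB2B (CPM) against the mouse share of counts (%) in the 16 libraries, coloured by group; triangles mark the 4 libraries that stood apart. Low TUBB6 occurs both at mouse shares of 41.9% to 71.2% and, in phenelzine 3 and vehicle 4, at 9.25% and 13.6%, and TUBB2B in combination 4 and nab-paclitaxel 2 and 3 exceeds all libraries without nab-paclitaxel at mouse shares of 18.6% to 23.4%.

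TUBA1A, an α-tubulin best known from developing neurons, stood at 523, 515, 638 and 782 CPM with the combination, 1055, 644, 378 and 795 CPM with nab-paclitaxel, 230, 247, 379 and 388 CPM with phenelzine, and 403, 424, 240 and 441 CPM with vehicle. All combination libraries exceeded all phenelzine and vehicle libraries. Among the nab-paclitaxel libraries the lowest, number 3, fell within the vehicle range. The means were 666 ± 210.2 CPM with and 344 ± 89.3 CPM without nab-paclitaxel (SD, n = 8 each), or a log2 fold change of 0.96 with SE 0.203 (edgeR adjusted p = 0.00800).

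TUBA4A, an α-tubulin whose encoded chain lacks the C-terminal tyrosine of most α-tubulins, stood at 76.4, 68.5, 61.4 and 52.3 CPM with the combination, 69.9, 54.2, 46.0 and 72.6 CPM with nab-paclitaxel, 25.7, 24.1, 47.8 and 47.3 CPM with phenelzine, and 37.4, 68.2, 40.3 and 38.3 CPM with vehicle. The combination libraries did not overlap the phenelzine libraries, and vehicle 2 was far above the other vehicle libraries. The average effect was a log2 fold change of 0.62 with SE 0.184 (edgeR adjusted p = 0.0335). This call was lost in 9 of the 16 fits that left out 1 library (nab-paclitaxel 1 or 4, phenelzine 1 or 2, combination 1 or 3, vehicle 1, 3 or 4). Over all 16 its log2 fold change was 0.55 to 0.75, and the edgeR adjusted p was at most 0.0652. The call was also lost with limma voom (adjusted p = 0.0848).

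TUBA1B and TUBA1C, α-tubulins of most dividing cells, kept narrow ranges. TUBA1B ran from 656 to 898 CPM with the combination, 710 to 888 CPM with nab-paclitaxel, 762 to 1018 CPM with phenelzine and 711 to 862 CPM with vehicle. TUBA1C ran from 421 to 567 CPM, 465 to 532 CPM, 491 to 594 CPM and 473 to 546 CPM in the combination, nab-paclitaxel, phenelzine and vehicle groups in that order. The groups overlapped for both genes. Their average nab-paclitaxel effects were log2 fold changes of -0.04 for each (SE 0.092 and 0.077, edgeR adjusted p = 0.771 and 0.751).

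The average nab-paclitaxel effect asks what the taxane did over both states of phenelzine. Of the 10 isotypes 5 rose and 0 fell (edgeR adjusted p under 0.05), while 17.3% of the tested genes passed, 11.2% upward and 6.07% downward. At an unadjusted p under 0.05 there were the same 5, against 34.8% of the tested genes. The median log2 fold change of the 10 was 0.29, against -0.01 over all tested genes, and the median absolute value was 0.55 against 0.27. The calls of TUBB2A, TUBB2B, TUBB3 and TUBA1A were kept in all 16 fits that left out 1 library, where 10.0% to 26.1% of all genes passed.

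The size of these rises moved with the libraries and the mouse share. When the mouse share was added as a covariate, 0 of the 10 isotypes passed, where 0.188% of all genes did, and without the 4 libraries that stood apart also 0 passed, where 1.66% of all genes did. The log2 fold change of TUBB2B was then 1.13 (edgeR adjusted p = 0.273) with the covariate and 1.17 (0.0897) without the libraries. For TUBB3 it was 0.54 (edgeR adjusted p = 0.372) and 0.45 (0.134), for TUBA1A 0.83 (0.287) and 0.75 (0.112), for TUBB2A 0.30 (0.689) and 0.30 (0.310), and for TUBA4A 0.24 (0.793) and 0.43 (0.379). All 5 stayed positive. TUBB6 changed sign, at 0.11 (edgeR adjusted p = 0.968) and 0.11 (0.897), as did TUBB4B, TUBA1B and TUBA1C, whose values stayed between -0.06 and 0.07 in these fits and the fit of all libraries. The mouse share and nab-paclitaxel treatment are partly confounded in these 16 libraries.

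**Figure D3:**
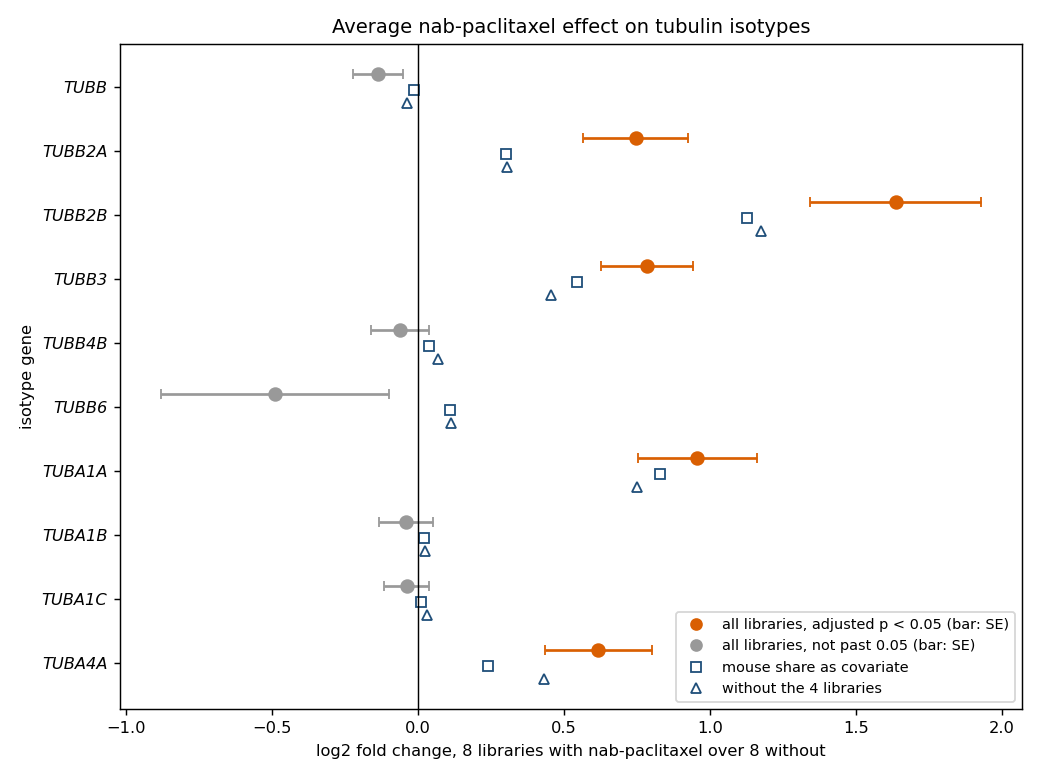
Average nab-paclitaxel effect on each isotype as a log2 fold change, 8 libraries with the drug over 8 without. Circles with SE bars are the fit of all libraries (orange where edgeR adjusted p was under 0.05), open squares the fit with the mouse share as a covariate and open triangles the fit without the 4 libraries that stood apart; the 5 orange genes lie at 0.62 to 1.64, and all 5 are smaller in both other fits.

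The combination was set against phenelzine to see the taxane on a phenelzine background. Of the isotypes, 2 rose, TUBB2B with a log2 fold change of 1.96 with SE 0.420 (edgeR adjusted p = 0.0391) and TUBB3 with 0.98 (SE 0.222, edgeR adjusted p = 0.0424), where 2.27% of all tested genes passed, 1.65% upward and 0.623% downward. TUBA1A (0.98), TUBA4A (0.84) and TUBB2A (0.87) had edgeR adjusted p of 0.0762, 0.0902 and 0.0760, and all 5 had an unadjusted p under 0.05, as did 23% of all tested genes. The libraries of the 2 groups did not overlap for any of these 5 genes, with the combination higher, against 5.53% of all tested genes. The margin was narrow for TUBB3 (85.2 over 84.9 CPM) and TUBB2A (20.5 over 20.4 CPM). Leaving out 1 library ended the call of TUBB2B in 11 of 16 fits (any phenelzine or vehicle library, combination 1 or 3, or nab-paclitaxel 4) and that of TUBB3 in 12 (the same and nab-paclitaxel 3). Over all 16 fits TUBB2B had log2 fold changes of 1.69 to 2.23, and TUBB3 of 0.87 to 1.15. Both calls also ended with the mouse share as a covariate (log2 fold change 1.25 and edgeR adjusted p = 0.651 for TUBB2B, 0.66 and 0.672 for TUBB3) and without the 4 libraries that stood apart (1.29 and 0.229, and 0.66 and 0.178). In the edgeR fit of only the 2 groups both ended (adjusted p = 0.136 for TUBB2B and 0.116 for TUBB3), and that of TUBB2B ended with limma voom (adjusted p = 0.0586).

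Given alone, nab-paclitaxel was compared with vehicle. With edgeR 0 of the 10 isotypes passed, where 0.165% of all tested genes did. At an unadjusted p under 0.05 there were 4, TUBB2A, TUBB2B, TUBB3 and TUBA1A, against 20.3% of all tested genes, and DESeq2 called 2, TUBB2B and TUBA1A (7.95% of all tested genes), while voom called 0 (3.3%). The log2 fold changes were 1.31 for TUBB2B (SE 0.412, edgeR adjusted p = 0.116), 0.93 for TUBA1A (SE 0.287, 0.113), 0.62 for TUBB2A (SE 0.254, 0.191), 0.59 for TUBB3 (SE 0.221, 0.161) and 0.40 for TUBA4A (SE 0.259, 0.399). Only TUBB2B showed no overlap between the nab-paclitaxel and the vehicle libraries among the 10, against 7.67% of all tested genes that were higher without overlap.

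The combination against vehicle gave a like order of values, and it shares the vehicle libraries with the preceding comparison. With edgeR 0 isotypes passed (0.734% of all tested genes), 4 had an unadjusted p under 0.05 (22.4% of all tested genes), DESeq2 called 1, TUBB2B (8.68%), and voom called 0 (0.612%). TUBB2B had a log2 fold change of 1.63 with SE 0.415 (edgeR adjusted p = 0.0689), TUBB2A 0.71 (SE 0.255, 0.136), TUBA1A 0.71 (SE 0.286, 0.171), TUBB3 0.65 (SE 0.221, 0.123) and TUBA4A 0.49 (SE 0.259, 0.274). TUBB2B and TUBA1A were higher without overlap, as were 5.30% of all tested genes. Without combination 2, edgeR called 3 isotypes, TUBB2A, TUBB2B and TUBB3 (7.39% of all tested genes), and without combination 4 it called TUBB2B (2.97%).

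Phenelzine moved no isotype past the threshold. Against vehicle, edgeR called 0 of the 10 (0% of all tested genes), 0 had an unadjusted p under 0.05 (2.35% of all tested genes), and DESeq2 and voom called 0. The log2 fold changes lay between -0.35 (TUBA4A) and 0.17 (TUBB4B). For the combination against nab-paclitaxel, edgeR called 0 of the 10 (0.00552% of all tested genes), 0 had an unadjusted p under 0.05 (2.94%), and DESeq2 and voom called 0, with log2 fold changes of -0.22 (TUBA1A) to 0.32 (TUBB2B). The average phenelzine effect gave the same counts of 0 (0% of all tested genes with adjustment, 2.2% without), with log2 fold changes of -0.25 (TUBA1A) to 0.12 (TUBB4B). Standard errors in these pairwise comparisons were 0.109 to 0.550. Between 4 and 4 tumours even differences well above the standard error could fail to pass. TUBB2B in the combination against vehicle, at 1.63 with SE 0.415, did not pass (edgeR adjusted p = 0.0689).

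The interaction asks whether the phenelzine effect differed with and without nab-paclitaxel. With edgeR 0 isotypes passed (0% of all tested genes), 0 had an unadjusted p under 0.05 (3% of all tested genes), and DESeq2 and voom called 0. The interaction was largest for TUBB2B, at 0.66 log2 units with SE 0.576 (edgeR adjusted p = 0.99997), followed by TUBA4A at 0.44 with SE 0.366 and the same adjusted p.

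**Figure D4:**
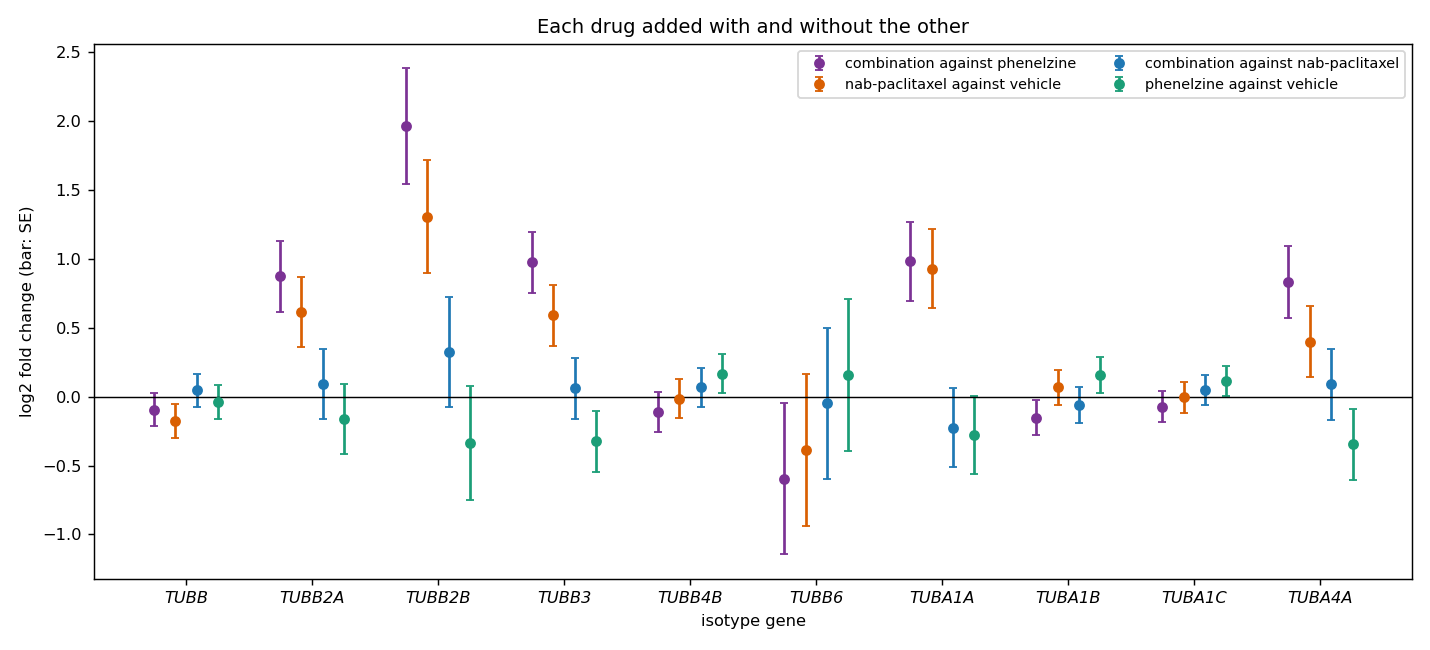
Log2 fold change of each isotype (edgeR, bars are SE) for nab-paclitaxel added to phenelzine (combination against phenelzine) and alone (nab-paclitaxel against vehicle), and for phenelzine added to nab-paclitaxel (combination against nab-paclitaxel) and alone (phenelzine against vehicle). Values for nab-paclitaxel are 0.40 to 1.96 in TUBB2A, TUBB2B, TUBB3, TUBA1A and TUBA4A, and those for phenelzine lie between -0.35 and 0.32 in all 10.

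The isotype counts of a library were described by shares, each β gene as a percentage of the summed counts of the 6 β genes and each α gene of the 4 α genes. Like the levels, shares are not divided by transcript length. They compare the same gene between libraries and do not give the proportions of the isotype mRNAs. A share needs no scaling between libraries, but shares of a class sum to a whole and are not independent. Shares were compared with exact permutation tests over libraries, two-sided, for 70 comparisons (10 shares in 5 pairs of groups and 2 averages), with Benjamini-Hochberg values over these 70. For the averages, 8 libraries were set against 8 and permuted freely, without keeping to the groups of the other drug. With 4 against 4 libraries the smallest possible p is 0.0286, reached when the groups do not overlap. Adjusted over 70 tests, that p passes only if most of the tests reach it, so a single separated share could not pass. No pairwise comparison of shares passed, with 0.125 the lowest adjusted value, and this does not show that the shares were alike. The 95% Wilson intervals of single shares were at most 1.31 points wide. They treat each count as a separate read, which the deposited counts may not be, and cover no spread between tumours.

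Among α-tubulin counts the TUBA1A share was 26.4%, 26.6%, 35.9% and 34.1% in combination libraries, 45.9%, 30.9%, 21.2% and 34.8% in nab-paclitaxel libraries, 13.9%, 13.1%, 22.6% and 20.5% in phenelzine libraries, and 24.8%, 22.6%, 15.9% and 23.4% in vehicle libraries. Nab-paclitaxel 3 was the only library with the drug that fell among those without it. Over the 8 libraries each way TUBA1A made up 32.0% ± 7.54 with and 19.6% ± 4.61 without nab-paclitaxel, a difference of 12.4 points (exact permutation p = 0.00109, 0.0196 after adjustment). The TUBA1B share averaged 39.6% ± 4.73 with and 47.6% ± 3.47 without the drug, a difference of -8.01 points (exact permutation p = 0.00124, 0.0196 after adjustment). The TUBA1C share averaged 25.3% ± 3.09 and 30.4% ± 2.09 with and without the drug, a difference of -5.09 points (exact permutation p = 0.00233, 0.0272 after adjustment). Counted without TUBA1A, the differences of TUBA1B and TUBA1C were -0.981 and -0.614 points, neither past the threshold (exact permutation p = 0.259 and 0.361).

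Among β-tubulin counts TUBB made up 72.0% ± 2.54 with and 72.4% ± 2.91 without nab-paclitaxel, a difference of -0.385 points (exact permutation p = 0.781, 0.906 after adjustment). As a share of all 10 genes TUBB differed by -4.26 points (exact permutation p = 0.00280, 0.0392 after adjustment), past the threshold, while TUBA1B and TUBA1C, at -0.344 and -0.188 points, did not pass (0.777 and 0.706 after adjustment). TUBB3, TUBB2A and TUBB2B took larger shares with the drug. TUBB3 made up 4.22%, 2.11%, 5.26% and 2.83% in combination libraries, 5.40%, 2.25%, 2.75% and 3.67% in nab-paclitaxel libraries, 1.46%, 1.38%, 2.19% and 1.53% in phenelzine libraries, and 2.25%, 1.76%, 1.97% and 2.28% in vehicle libraries. Combination 2 and nab-paclitaxel 2 lay within the range of libraries without the drug, and the other 6 lay above it. The average difference of the TUBB3 share was 1.71 points (exact permutation p = 0.00140, 0.0196 after adjustment).

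The TUBB2A share averaged 0.888% ± 0.346 with and 0.468% ± 0.0687 without nab-paclitaxel, a difference of 0.420 points (exact permutation p = 0.000622, 0.0196 after adjustment). That of TUBB2B averaged 0.0909% ± 0.0434 and 0.0254% ± 0.00851 with and without the drug, a difference of 0.0654 points with no overlap between libraries (exact permutation p = 0.000155, the smallest possible, 0.0109 after adjustment). In all, 6 of the 10 shares passed in this comparison, which was not run with the mouse share as a covariate. The number fell to 1 without phenelzine 1, phenelzine 2, phenelzine 4 or vehicle 3, and to 3 without phenelzine 3. Without the 4 libraries that stood apart, 4 libraries with the drug were set against 8 without, and the smallest possible exact p of 0.00202, which TUBB2B reached, gave 0.141 after adjustment, so that passing the threshold there was out of reach for a single separated share. The differences were then 8.61 points for TUBA1A (exact permutation p = 0.0222, 0.301 after adjustment), 0.633 points for TUBB3 (0.0263, 0.301), 0.0316 points for TUBB2B (0.00202, 0.141) and 0.106 points for TUBB2A (0.0202, 0.301). Those of TUBA1B and TUBA1C were -5.53 and -3.48 points (exact permutation p = 0.0343 and 0.0323, each 0.301 after adjustment).

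The TUBB6 share ranged from 3.08% in combination 1 to 12.8% in phenelzine 4. It averaged 7.39% ± 3.79 with and 9.88% ± 3.23 without nab-paclitaxel (SD, n = 8 each), a difference of -2.49 points that did not pass (exact permutation p = 0.160, 0.361 after adjustment). TUBB took the largest β shares, 74.0% to 77.7%, in 5 of the 6 libraries with low TUBB6, nab-paclitaxel 4 being the exception with 72.0%. For phenelzine no share passed in the average comparison, with 0.227 the lowest adjusted value. The TUBB4B share was 16.2% ± 0.656 with phenelzine and 14.5% ± 0.732 with vehicle (SD, n = 4 each), without overlap (exact permutation p = 0.0286, the smallest possible, 0.125 after adjustment). It was 16.2% ± 1.47 with the combination and 15.97% ± 0.703 with nab-paclitaxel, and the nab-paclitaxel libraries too lay above all vehicle libraries in this share (exact permutation p = 0.0286, 0.125 after adjustment).

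**Figure D5:**
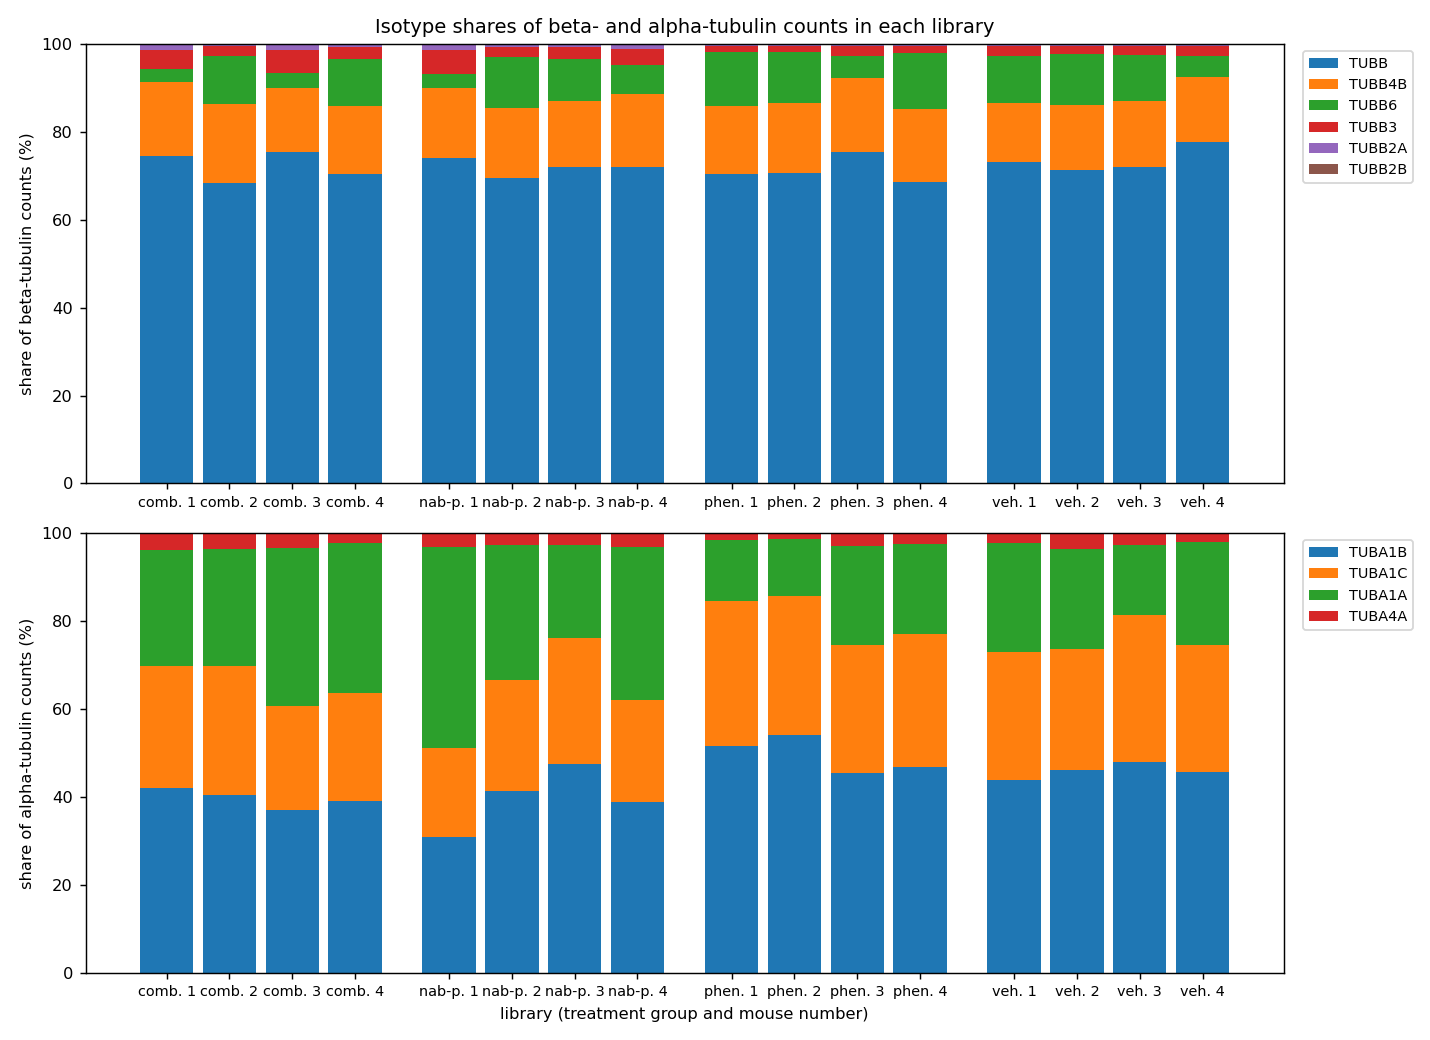
Share of each isotype in the summed β-tubulin counts (upper panel, %) and α-tubulin counts (lower panel, %) of every library, by group from left to right: combination, nab-paclitaxel, phenelzine, vehicle. TUBA1A takes 21.2% to 45.9% of α counts in libraries with nab-paclitaxel and 13.1% to 24.8% in those without; the TUBB2B share, at most 0.171%, is too small to see.

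The isotypes that rose varied together across libraries. Log2 CPM correlated at r = 0.90 for TUBB2A with TUBB3, 0.87 for TUBB2B with TUBB3, 0.84 for TUBB2B with TUBA4A and 0.78 for TUBB3 with TUBA1A, over 16 libraries. TUBA1B and TUBA1C correlated at 0.86, and TUBB with TUBB4B at 0.73. These are descriptions, and the libraries share treatment, mouse share and scaling. Among 10209 other genes with a mean of at least 10 CPM, ENSG00000125835 was most like TUBB (r = 0.89) and ENSG00000110075 most like TUBA1B (r = 0.86); the files give no symbol for either.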

How the data were processed

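The deposited values are whole-number counts per Ensembl gene in a human and a mouse matrix of the same 16 libraries. The submitters' processing notes list Trimmomatic 0.36, HISAT2 2.04, Picard, StringTie and edgeR, with hg38 and mm10 as builds, without saying which step each served. Per the labels, libraries were made with the TruSeq mRNA kit. How counts were made from reads is not given in the sources used here. In the deposited human counts the values 1, 2, 3 and 4 occur 14483, 24107, 24309 and 10534 times. A low count may therefore not be a plain tally of reads.

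Human counts were tested by the quasi-likelihood method of edgeR 4.0.16 (R 4.3.3) after its default filter (minimum count 10) and TMM scaling. All 16 libraries entered a model with a mean for each group, which leaves 12 residual degrees of freedom. A standard error is the size of the log2 fold change over the root of its F statistic. DESeq2 1.42.0, limma 3.58.1 (voom with quality weights), RLE factors, no filter, fits of only the groups compared, a mouse share covariate, a replicate block and leaving out libraries were alternatives. The fit was also run on simulated counts with the same dispersion for every gene. These counts held no libraries that stood apart and no trend with the mouse share, so the run does not cover those features. Share tests used Python 3.11.15 with numpy 2.4.6. Each library is 1 mouse. No library repeated another of its group: chi-square per degree of freedom was at least 39.1.

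The members, lists, averages and the 4 libraries left out were chosen with earlier results of these data known. The rule for named genes took all 10 members, genes of the lists, and the genes most like the α and the β member with most counts. The 10 lists of 97 genes (such as other tubulins, folding factors, modifying enzymes, cell line and neuronal markers), and mouse tubulins, were not analysed here, because 0 Ensembl identifiers are paired with symbols in the RefSeq table at hand. Levels per transcript length and sequences were not analysed here.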

Additional observations from a re-analysis of the deposited data

Results flagged for a closer look

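In 80 groups of 4 libraries (10 levels and 10 shares in 4 groups) the gap between the most extreme library and its nearest neighbour was compared with the range of the group, and 5 stood out by Dixon's 95% limit, where chance alone gives about 4. TUBB4B was lowest in nab-paclitaxel 1, at 516 CPM. TUBA1C was lowest in combination 3, at 421 CPM. TUBA4A was highest in vehicle 2, at 68.2 CPM, the vehicle library with the largest mouse share (37.8%), and this value narrows the nab-paclitaxel difference for TUBA4A: without vehicle 2 the average log2 fold change was 0.75. The TUBB4B share of β counts was lowest in vehicle 1, at 13.4%, and the TUBB6 share was lowest in phenelzine 3, at 4.92%.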

How the results depend on the processing

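The average nab-paclitaxel effect gave 5 isotypes (17.3% of all genes) and 4 with voom (TUBA4A lost, 12.6%). It gave 0 with the mouse share as a covariate (0.188%) and 0 without the 4 libraries that stood apart (1.66%). The combination against phenelzine gave 2 isotypes (2.27% of all genes), 5 with DESeq2 (10.1%) and 1 with voom (TUBB2B lost, 0.695%). The replicate block gave 1 (TUBB2B lost, edgeR adjusted p = 0.0569), where 0.535% of all genes passed. There were 0 in the fit of only the 2 groups (0.00597%), 0 with the covariate (0.0221%) and 0 without the 4 libraries (0.25%). Leaving out 1 library gave 0 to 4, where 0.0375% to 7.92% of all genes passed. Nab-paclitaxel against vehicle gave 0 (0.165% of all genes), or 2 with DESeq2 (7.95%). The combination against vehicle gave 0 (0.734%), 1 with DESeq2 (8.68%) and 0 to 3 with 1 library left out (0.00536% to 7.39%). With RLE factors, or with no filter on low counts, each of the 8 comparisons kept its count of isotypes. In the average nab-paclitaxel effect 17.6% and 6.71% of all genes passed in these 2 fits.

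In the average nab-paclitaxel effect, uncalled log2 fold changes changed sign with the covariate and without the 4 libraries: to 0.0387 and 0.0692 for TUBB4B, 0.109 and 0.114 for TUBB6, 0.0184 and 0.0241 for TUBA1B, and 0.00823 and 0.0286 for TUBA1C. With 1 library left out they ran from -0.0903 to 0.00828 for TUBB4B, -0.0647 to 0.00790 for TUBA1B and -0.0555 to 0.0171 for TUBA1C. Of 55 fold changes not listed one by one, 34 changed sign in an alternative, and 0 were called in any.

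Of the shares, 6 passed, 2 without TUBB2B and TUBA1A, 5 as shares of all 10 genes (TUBB gained, TUBA1B and TUBA1C lost), 0 without the 4 libraries, where 4 against 8 libraries limit the adjusted p, and 1 to 6 with 1 library left out. The uncalled TUBB share difference ran from -0.912 to 0.369 points with 1 library left out. That of TUBB4B was -0.412 points as a share of all 10 genes, and that of TUBB6 0.867 points without the 4 libraries. Shares per transcript length, or with the mouse share as a covariate, were not run.

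The replicate numbers showed no regular pairing. In log2 CPM less the group mean, 4 of 24 same-numbered pairs correlated over 0.1 (r from -0.43 to 0.57). Nab-paclitaxel and combination libraries correlated at 0.50, 0.57, -0.43 and -0.26 for numbers 1 to 4. Libraries that stood apart weigh on such values, which cannot show that pairing was absent. With the replicate block the average nab-paclitaxel effect gave 4 isotypes, TUBA4A being lost (edgeR adjusted p = 0.0578), where 15.6% of all genes passed. Over all genes, calls in the average nab-paclitaxel effect were 3131, 34 with the covariate and 305 without the 4 libraries. In the combination against phenelzine they were 412, 1832 with DESeq2, 126 with voom, 97 with the block, 1 in the fit of the 2 groups, 4 with the covariate and 46 without the 4 libraries.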
